A study of Mus musculus with 16 samples.

Results

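The 10 genes described here are the regulators of oxidative metabolism of the PGC-1, PPAR and ERR circuit, chosen by name from the 55573 genes of the count table: the coactivators Ppargc1a and Ppargc1b, the fatty acid receptors Ppara and Ppard, the estrogen-related receptors Esrra, Esrrb and Esrrg, the partner receptor Rxra, and the mitochondrial regulators Nrf1 and Tfam. All 10 passed the filter on low counts and were tested. Their RNA was measured at the apex of the heart in 16 male mice, 4 in each of 4 groups. Every wild-type mouse had received AAV9 under the skin at postnatal day 1, as AAV9-cTNT-GFP in the control groups or AAV9-cTNT-CARDINAL in the others, so the controls carried virus too, and the cardiac troponin T promoter drove the transgene in cardiomyocytes. GFP is a fluorescent protein that served as the control, and CARDINAL is a long noncoding RNA whose mouse form is listed in the counts as Gm12295. The mice underwent TAC, which narrows the transverse aorta so that the left ventricle pumps against raised pressure, or sham surgery at a body weight of 25 to 30 g, and hearts were taken 4 weeks later. The age at surgery and the strain are not given in the sources used here. Each virus was studied after sham and after TAC surgery, and the viruses are called AAV9-GFP and AAV9-CARDINAL below. The labels number the samples within a group without saying that each is a separate mouse, and if some were not, p-values would measure technical spread.

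PGC-1 coactivators bind no DNA themselves. They are recruited by nuclear receptors and other transcription factors and raise the transcription of genes for mitochondrial respiration and fatty acid oxidation, the main fuel pathway of the adult heart. PPARα and PPARδ are activated by fatty acids and act as heterodimers with RXRα on genes of fatty acid uptake and β-oxidation, while the orphan receptors ERRα, ERRβ and ERRγ act on genes of the tricarboxylic acid cycle and the respiratory chain. NRF-1 activates nuclear genes for respiratory subunits and for TFAM, which packages and transcribes mitochondrial DNA.

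Totals of 16441997 to 21904589 counts were held by the 16 libraries, 30.3% to 34.0% of them from mitochondrially encoded genes. Values are given in CPM, which scales counts to TMM-normalized library sizes, and on which 3 counts correspond to between 0.126 and 0.195 CPM, a floor that covers counting error only. Each of the 10 genes lay far above that floor, the lowest being Nrf1 with at least 80 counts in every mouse. Gm12295 averaged 4.77 ± 1.03 CPM (SD, n = 4) in AAV9-GFP sham, 4.88 ± 1.66 in AAV9-GFP TAC, 31.0 ± 6.25 in AAV9-CARDINAL sham and 38.1 ± 37.3 in AAV9-CARDINAL TAC hearts. The wide SD of the last group came from replicate 1, which held 93.9 CPM against 18.3 to 20.6 in the other 3 mice. That mouse also stood apart in several results below, which are therefore given with and without it.

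The genes differ in the DNA just before their start, shown first because Rxra, the gene called with TAC with both viruses, and Ppargc1a, the gene that varied most between mice, lie far apart in it at their first listed start. RefSeq promoters on GRCm38.p6 were found for 9 of the 10 genes. In the 250 bases before the start, Rxra held 40 CpG dinucleotides at its first start, more than 98.7% of all 32851 promoters in the table, and 81.2% of its bases were G or C. A second RefSeq start of Rxra, further into the gene, held 1 CpG, and the counts per gene do not tell the starts apart. Ppargc1a held 5 CpG, close to the median of 6 over all promoters (middle 50% of promoters 2 to 16), and 48% G or C. Nrf1 (33), Ppara (27), Ppard (22), Esrra (22) and Tfam (19) also held more CpG at their first start than 80% of promoters, whereas Esrrg held 9 and Esrrb 6. Later starts held 2 CpG for Nrf1, 3 for Esrrb and 14, 22 and 16 for Esrrg. The stretches from 150 to 31 bases before the start, with CpG in capitals, lie at chr2:27677051-27677170 on the plus strand for Rxra (25 CpG) and at chr5:51567756-51567875 on the minus strand for Ppargc1a (3 CpG). The first lies within the annotated Rxra gene but in none of its exons, and the second in no annotated gene.
Rxra: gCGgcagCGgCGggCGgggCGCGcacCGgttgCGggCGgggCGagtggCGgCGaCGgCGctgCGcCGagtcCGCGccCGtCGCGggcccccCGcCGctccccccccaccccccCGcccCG
Ppargc1a: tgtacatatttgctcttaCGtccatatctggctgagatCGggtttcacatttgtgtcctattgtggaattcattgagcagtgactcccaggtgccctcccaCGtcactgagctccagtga

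Next, 6 sequence motifs were searched on both strands of those 250 bases in the 15 promoters of the 9 genes. The NRF-1 core, the letters in capitals on the Ppara line below and held by 0.782% of all promoters, was found before Ppara, and the GABP element CCGGAAGT, held by 2.88%, before Tfam. Both are printed below with the motif in capitals, at chr15:85735735-85735764 on the plus strand for Ppara, within the gene but in no exon, and at chr10:71238073-71238102 on the minus strand for Tfam, within an annotated exon. The ERR element TCAAGGTCA (0.387% of all promoters), the repeat of AGGTCA with 1 base between, bound by PPAR and RXR (0.0335%), the cAMP response element TGACGTCA (1.55%) and the E-box CACGTG (6.02%) were not found in these windows. These are matches of letters, not measured binding.
Ppara: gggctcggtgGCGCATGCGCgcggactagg
Tfam: cctgccgcggaCCGGAAGTccgggcttccc

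Per kilobase of exon, the scale on which levels of different genes can be compared, Ppargc1a was the most abundant of the 10 in AAV9-GFP sham hearts at 31.7 ± 8.51 CPM per kilobase (SD, n = 4). Esrra followed at 15.5 ± 0.478 CPM per kilobase, above every other receptor in each of the 4 mice. Ppara stood at 9.01 ± 0.543 and its partner Rxra at 8.54 ± 0.457 CPM per kilobase, and the mice of both genes overlapped. Below them, Esrrg (5.77 ± 0.394), Tfam (5.14 ± 0.233), Esrrb (4.08 ± 0.674), Ppargc1b (3.64 ± 0.737) and Ppard (3.32 ± 0.212 CPM per kilobase) formed a run in which each gene overlapped the next. Nrf1 was lowest at 0.664 ± 0.0867 CPM per kilobase and overlapped none. Among the fatty acid receptors Ppara thus exceeded Ppard, and among the coactivators Ppargc1a exceeded Ppargc1b, without overlap between mice. Exon lengths take every annotated transcript together, so a gene that uses only some of its exons in the heart reads low on this scale.

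**Figure D1:**
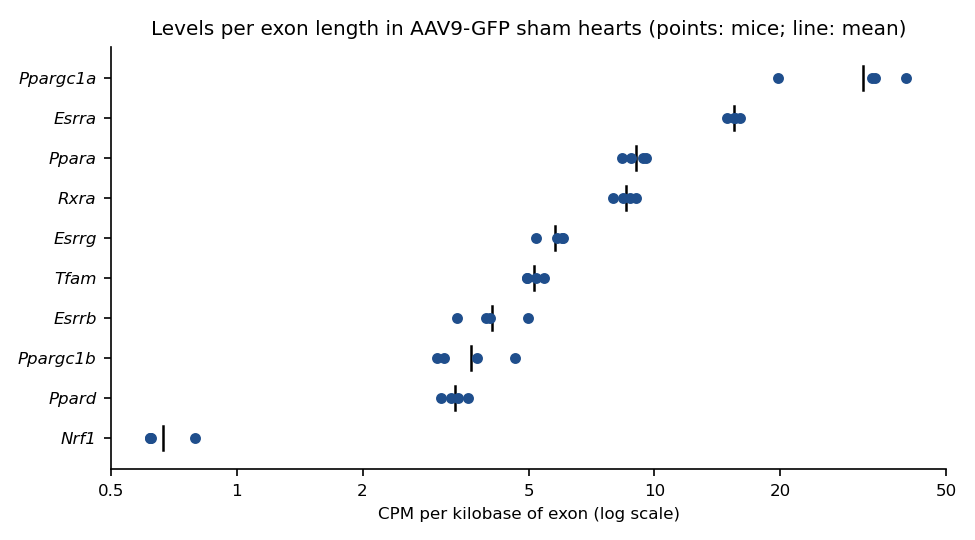
Levels of the 10 regulators in AAV9-GFP sham hearts in CPM per kilobase of exon on a log axis, with a point for each of the 4 mice and a bar at their mean. Ppargc1a leads at 31.7 and Nrf1 is lowest at 0.664, and several neighbors in the middle of the order overlap.

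With pressure overload, 2 of the 10 regulators fell in AAV9-GFP hearts, Ppara by 32.8% and its partner Rxra by 20.1%, and none rose. Over all 16857 genes tested, 17.4% were called in either direction in this comparison at an adjusted p under 0.05 (edgeR's quasi-likelihood test), and 8.92% were called lower. The 2 of 10 genes called are close to that background share. The median log2 fold change over the 10 was -0.15, against 0.0050 over all genes, and 8 of the 10 values were below 0.

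Ppara, the receptor for fatty acids that predominates in heart, was at 36.6, 36, 33.7 and 32.1 CPM in AAV9-GFP sham hearts (replicates 1, 2, 3 and 4) and at 25.2, 16.1, 27.2 and 24.6 CPM in AAV9-GFP TAC hearts (replicates 1, 3, 4 and 7). Every TAC mouse lay below every sham mouse, and replicate 3 was the lowest of the 16. The log2 fold change was -0.57 (SE 0.13, adjusted p = 0.0064 by edgeR's quasi-likelihood test, lower in 4 of 4 mice). Rxra, whose product pairs with PPARs to bind DNA, was at 49.3, 47.8, 46.0 and 43.5 CPM in AAV9-GFP sham and at 40.0, 35.5, 36.9 and 36.7 CPM in AAV9-GFP TAC hearts. Here too the groups did not overlap, as was the case for 20.3% of all genes tested. The change was -0.32 on the log2 scale (SE 0.068, adjusted p = 0.0041, edgeR).

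The remaining 8 regulators did not pass the test in AAV9-GFP hearts. Esrra, the most abundant ERR, was at 70.5, 65.4, 68.3 and 68.2 CPM after sham surgery and at 64.8, 55.2, 61.5 and 65.4 CPM after TAC, so that 3 of 4 TAC mice lay below all sham mice (log2 fold change -0.14, 95% interval -0.29 to 0.0062, adjusted p = 0.19, edgeR). Esrrg had -0.15 and Esrrb -0.12 on the same scale, with adjusted p = 0.18 and 0.57 in the same edgeR fit. The coactivator Ppargc1b averaged 14.5 ± 2.94 CPM after sham surgery and 11.9 ± 2.36 after TAC (log2 fold change -0.29, 95% interval -0.59 to 0.013). Ppard (-0.06), Nrf1 (0.08) and Tfam (0.13) had intervals that included 0, and their groups overlapped. The interval of Ppard, from -0.20 to 0.07, was the narrowest around 0 of these, whereas that of Ppargc1a, from -1.03 to 0.61, was the widest.

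**Figure D2:**
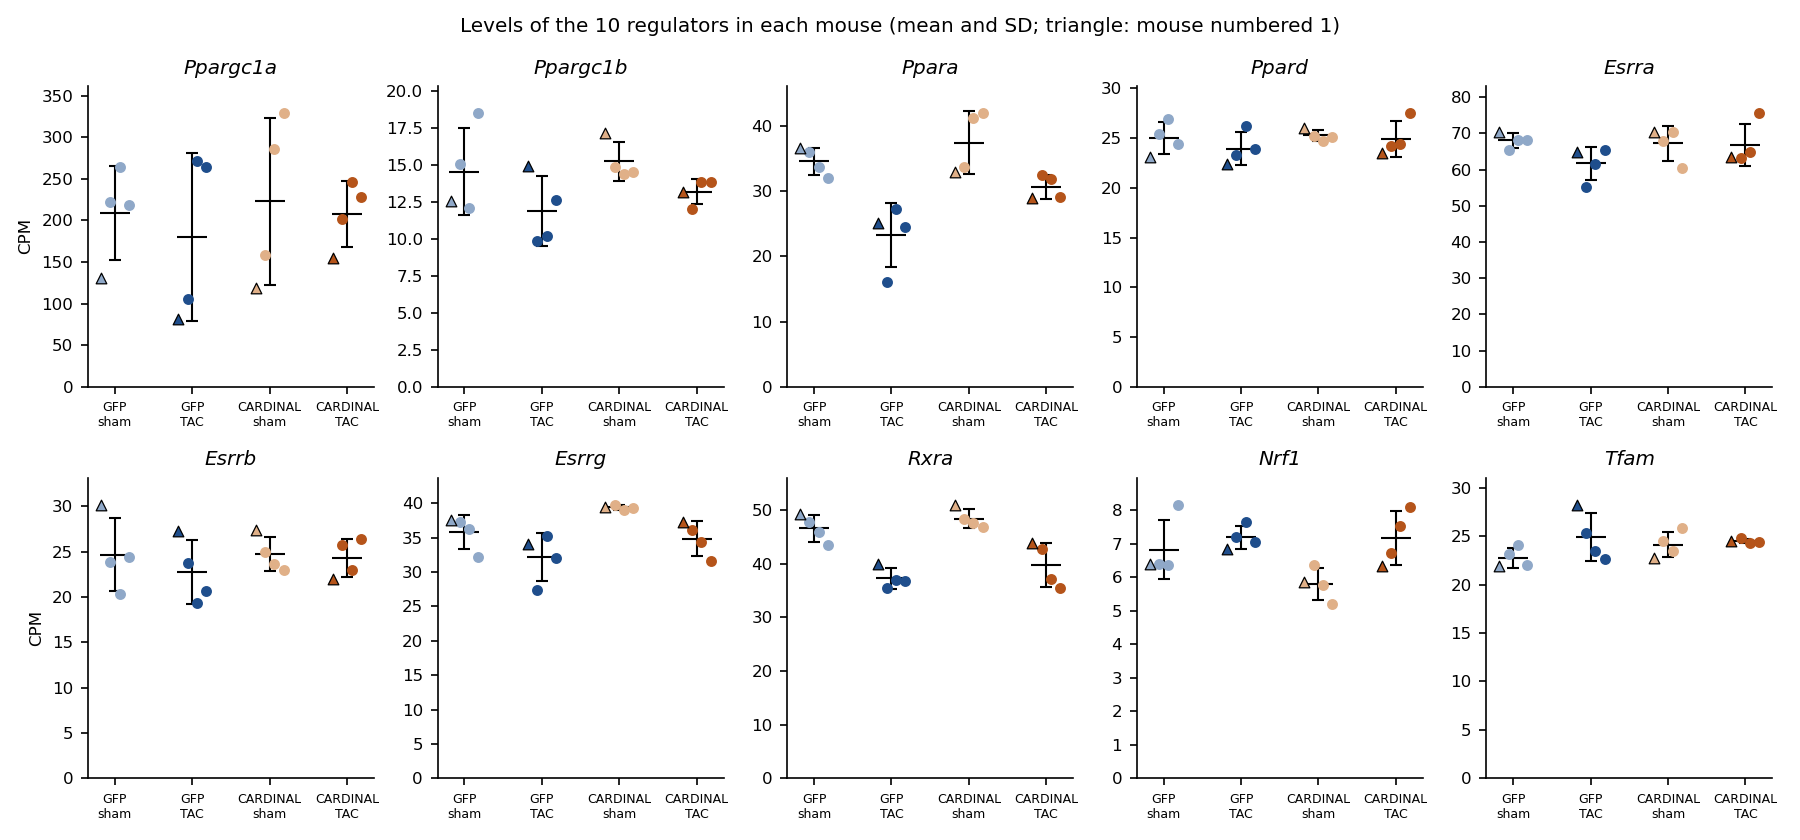
CPM of the 10 regulators in each of the 16 mice, in 4 groups of 4, with lines at each group's mean and SD and a triangle for the mouse numbered 1. Ppara and Rxra show TAC mice of the AAV9-GFP groups below all sham mice, and Ppargc1a spreads from 81.2 to 329 CPM.

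In AAV9-CARDINAL hearts the partner receptor Rxra was the single regulator called with TAC, falling by 17.8%. Over all genes, 6.48% were called in either direction and 3.38% lower, so 1 of 10 is close to the background share. An unadjusted p under 0.05 was held by 4 of the 10, against 3682 of all 16857 genes tested. Its values were 51.0, 48.4, 47.6 and 46.8 CPM after sham surgery (replicates 1 to 4) and 43.9, 42.8, 37.1 and 35.5 CPM after TAC (replicates 1, 4, 5 and 6). All TAC mice lay below all sham mice, and the log2 fold change was -0.28 (SE 0.068, adjusted p = 0.025, edgeR). This call was lost when the fit held only the 8 AAV9-CARDINAL mice (adjusted p = 0.059) and without sham replicate 1, sham replicate 2, TAC replicate 5 or TAC replicate 6 (adjusted p between 0.063 and 0.088), with log2 fold changes from -0.28 to -0.23. Without TAC replicate 1, the mouse that stood apart, the change of Rxra was -0.33 (adjusted p = 0.011, edgeR).

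For 3 more regulators the AAV9-CARDINAL groups did not overlap although the test was not passed, making 4 of 10 against 13.7% of all genes. Ppara was at 33.0, 33.6, 41.2 and 41.9 CPM after sham surgery and at 28.9, 32.5, 31.9 and 29.1 CPM after TAC (log2 fold change -0.29, SE 0.13, adjusted p = 0.20, edgeR). Esrrg, the ERR enriched in oxidative muscle, was at 39.5, 39.8, 39.0 and 39.3 CPM and then at 37.3, 36.2, 34.3 and 31.6 CPM (-0.18, adjusted p = 0.18). The sham mice of Esrrg were nearly equal, and the TAC mice ranged over several CPM below them. Ppargc1b was at 17.2, 14.9, 14.4 and 14.5 CPM and then at 13.1, 12, 13.8 and 13.8 CPM (-0.21, adjusted p = 0.43).

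Nrf1 moved the other way in AAV9-CARDINAL hearts, at 5.87, 6.37, 5.77 and 5.19 CPM after sham surgery and 6.33, 6.72, 7.54 and 8.10 CPM after TAC. Of the 4 TAC mice, 3 lay above all sham mice, and the log2 fold change of 0.30 did not pass the test (SE 0.10, adjusted p = 0.089, edgeR). Without TAC replicate 1 it was 0.36 with an adjusted p of 0.045, where 8.41% of all genes were called. Nrf1 was also the lowest of the 10 in counts, from 80 to 176 per mouse. Ppargc1a (-0.10), Ppard (-0.02), Esrra (-0.0094), Esrrb (-0.03) and Tfam (0.02) had adjusted p-values of 0.89 or above in the same edgeR fit.

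**Figure D3:**
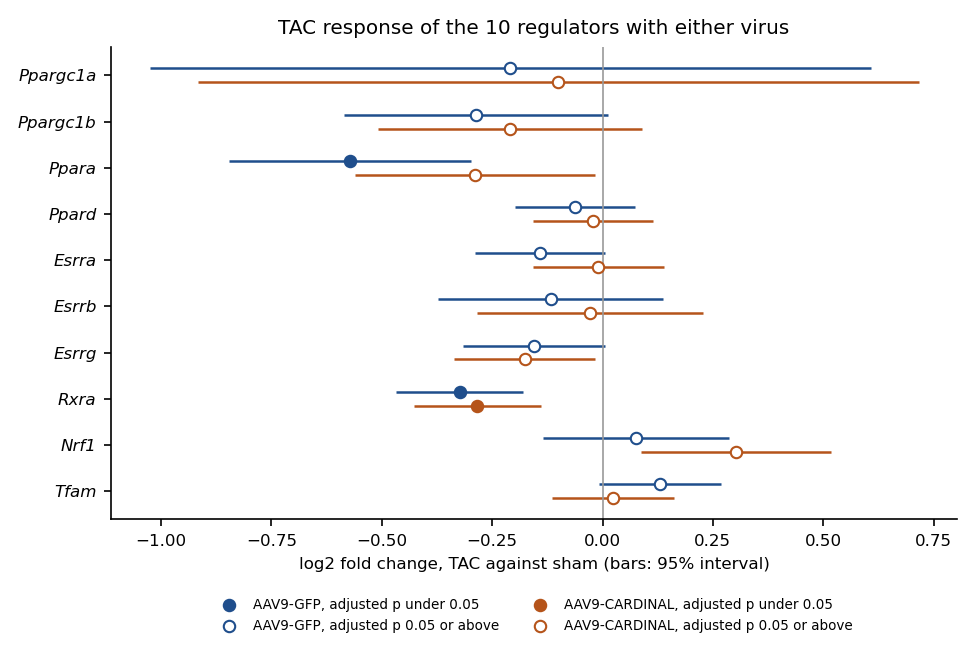
Log2 fold change with TAC of each of the 10 regulators in AAV9-GFP and in AAV9-CARDINAL hearts, with bars for the 95% interval of the edgeR fit of 16 mice. Ppara and Rxra lie below 0 with both viruses, and the interval of Ppargc1a is several times wider than the others.

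Between the viruses, none of the 10 regulators passed the test after TAC, where 0.101% of all genes did (17 genes). Ppara was the gene with the smallest p among the 10. Its AAV9-CARDINAL TAC mice, at 28.9 to 32.5 CPM, all lay above the AAV9-GFP TAC mice at 16.1 to 27.2 CPM, a separation upward that 3.58% of all genes had. The log2 fold change was 0.40 (95% interval 0.12 to 0.67, SE 0.13, adjusted p = 0.17, edgeR). Without AAV9-GFP TAC replicate 3, the mouse at 16.1 CPM, it was 0.26 (adjusted p = 0.35, edgeR), and without AAV9-CARDINAL TAC replicate 1 it was 0.42 (adjusted p = 0.12). Over all mice left out in turn its adjusted p ran from 0.099 to 0.40. It was the single regulator with an unadjusted p under 0.05, which 2528 of all 16857 genes tested had. DESeq2 also called none of the 10. The other differences lay between -0.02 and 0.20 on the log2 scale, from Tfam to Ppargc1a.

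In sham hearts none of the 10 passed the test either, against 0.0119% of all genes (2 genes), with 1 at an unadjusted p under 0.05 and none called by DESeq2, against 0.0165% of the genes to which it gave an adjusted p. Esrrg was higher in all 4 AAV9-CARDINAL sham mice (39.0 to 39.8 CPM) than in any AAV9-GFP sham mouse (32.3 to 37.5 CPM), with a log2 fold change of 0.14 (95% interval -0.02 to 0.30). Nrf1 was lower in all 4, at 5.19 to 6.37 CPM against 6.37 to 8.16 CPM (log2 fold change -0.23, 95% interval -0.45 to -0.02, adjusted p = 1 by edgeR). Without AAV9-GFP sham replicate 4, the mouse at 8.16 CPM, the log2 fold change was -0.13. The highest AAV9-CARDINAL and the lowest AAV9-GFP value of Nrf1 print alike at this rounding. Groups failed to overlap for 2.36% of all genes in this comparison.

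The TAC response itself was compared between the viruses as the difference of the log2 fold changes, and no regulator passed that test, while 0.0119% of all genes did. None had an unadjusted p under 0.05, and DESeq2 called none. Ppara had a difference of 0.28 (95% interval -0.10 to 0.67, adjusted p = 0.62, edgeR), which was 0.14 without AAV9-GFP TAC replicate 3, the mouse at 16.1 CPM, and from 0.23 to 0.37 with any other mouse left out. For Rxra the difference was 0.04 (95% interval -0.16 to 0.24), and for Nrf1 0.23 (-0.07 to 0.53). That of Nrf1 was 0.13 without AAV9-GFP sham replicate 4, its highest sham mouse. A fall of Ppara that passed the test with AAV9-GFP and did not with AAV9-CARDINAL is therefore not shown to differ between the viruses. The comparisons between viruses use the same TAC and sham mice as the comparisons with TAC, so their values are not independent of each other.

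Ppargc1a, the inducible coactivator that answers to cold, fasting and exercise in other tissues, differed more between mice of a group than between groups. It was at 130, 222, 264 and 219 CPM in AAV9-GFP sham hearts and at 81.2, 106, 271 and 264 CPM in AAV9-GFP TAC hearts. Among those TAC mice 2 lay below all sham mice and the other 2 at or just above the highest of them. In AAV9-CARDINAL hearts it was at 119, 158, 286 and 329 CPM after sham surgery and at 155, 202, 246 and 228 CPM after TAC, which stayed within the range of the sham mice.

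The SD of Ppargc1a within groups was 0.63 on the log2 scale, larger than that of 94.1% of all tested genes. Of the 328 genes whose mean level was within 0.5 log2 of it, 99.4% had a smaller SD, and their median SD was 0.10. The highest mouse had 4.05 times the level of the lowest, whereas this ratio was between 1.23 for Ppard and 2.61 for Ppara in the other 9 regulators. With 1895 to 6199 counts per mouse, counting error is small beside this spread. Ppargc1b, its paralog, had an SD of 0.21, larger than that of 62.3% of tested genes and of 83.7% of the 2675 genes near its own mean level.

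The mouse numbered 1 had the lowest Ppargc1a of its group in all 4 groups, as was the case for 1.9% of tested genes, and the highest Rxra in all 4 groups, as 2% of tested genes had. This was seen after the values were known, and the labels do not say what the numbers stand for. Clock genes, named after their values were seen, also moved with that number. Arntl, which encodes the clock activator BMAL1, was lowest in the mouse numbered 1 of every group (0.568 and 1.54 CPM in sham and TAC hearts with AAV9-GFP and 0.678 and 0.708 CPM with AAV9-CARDINAL, against up to 1.08, 3.52, 1.82 and 4.65 in the other mice). Dbp, a clock output gene in opposite phase, was highest in that mouse in 3 of 4 groups, at 108, 121 and 101 CPM against at most 88.8, 66.3 and 37.7, but not in AAV9-CARDINAL sham hearts, where replicate 2 was higher at 128 CPM against 105. Arntl itself rose with TAC in AAV9-GFP hearts (log2 fold change 1.43, SE 0.47, adjusted p = 0.049, edgeR) and had a similar value with AAV9-CARDINAL that did not pass (1.34, SE 0.46, adjusted p = 0.10). The part of the circadian clock in the levels of Ppargc1a and Rxra was not tested.

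Target genes of the PPARs fell with TAC as a group of single calls in AAV9-GFP hearts, 17 of 28 lower and none higher against 8.92% of all genes called lower, with a median log2 fold change of -0.30. The genes called included the β-oxidation enzymes Ech1 (786 ± 12.8 to 436 ± 30.2 CPM, log2 fold change -0.85), Hadha (1347 ± 46.5 to 907 ± 34.4, -0.57), Acaa2 (446 ± 19.7 to 261 ± 25.3, -0.77) and Acadm (956 ± 28.4 to 668 ± 49.6, -0.52), with adjusted p-values by edgeR between 1.9e-05 and 9.1e-05. In AAV9-CARDINAL hearts 10 of 28 were called lower against 3.38% of all genes, with a median of -0.21. Ech1 (-0.42), Hadha (-0.29) and Acaa2 (-0.40) were among them, and Acadm (-0.18, adjusted p = 0.11, edgeR) was not. The count of calls in either direction was 5 without TAC replicate 5, and 6 without sham replicate 2 or sham replicate 4. Without TAC replicate 1, the mouse that stood apart, 7 were called lower and 1 higher, with a median of -0.17, where 8.41% of all genes were called. The fatty acid binding protein gene Fabp3, at 1628 ± 42.2 and 1632 ± 82.4 CPM in AAV9-GFP sham and TAC hearts, had a log2 fold change of 0.0032.

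Not every PPAR target had a negative value. Pdk4, an inhibitor of glucose oxidation named after its values were seen, went from 150 ± 10.7 to 342 ± 242 CPM in AAV9-GFP hearts (log2 fold change 1.19, adjusted p = 0.18) and from 203 ± 100 to 679 ± 471 CPM in AAV9-CARDINAL hearts (1.74, adjusted p = 0.087, edgeR). Angptl4, which inhibits lipoprotein lipase, had 1.15 and 1.11 without a call.

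Target genes of the ERRs showed a different count with the 2 viruses. In AAV9-GFP hearts 26 of 30 fell with TAC, against 8.92% of all genes called lower, and all 30 had a value below 0, with a median of -0.27. Among them were Sdha of respiratory complex II (1106 ± 8.68 to 784 ± 58.4 CPM, log2 fold change -0.50), the ATP synthase subunit gene Atp5a1 (2964 ± 38.8 to 2312 ± 104, -0.36) and Idh3g of the tricarboxylic acid cycle (347 ± 10.2 to 252 ± 9.26, -0.46), with adjusted p-values by edgeR between 6.1e-05 and 1.4e-04. In AAV9-CARDINAL hearts 3 of 30 fell, against 3.38% of all genes, namely Mfn2, Idh3g and Ldhb, and the median was -0.08. Without AAV9-CARDINAL sham replicate 2 or TAC replicate 5 none of the 30 was called, and without sham replicate 1 or sham replicate 4 the count in either direction was 1. Without AAV9-CARDINAL TAC replicate 1 it was 2, with a median of -0.03, where 8.41% of all genes were called. The 12 cardiomyocyte markers, described below, had a similar pair of medians with TAC, -0.28 with AAV9-GFP and -0.010 with AAV9-CARDINAL.

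**Figure D4:**
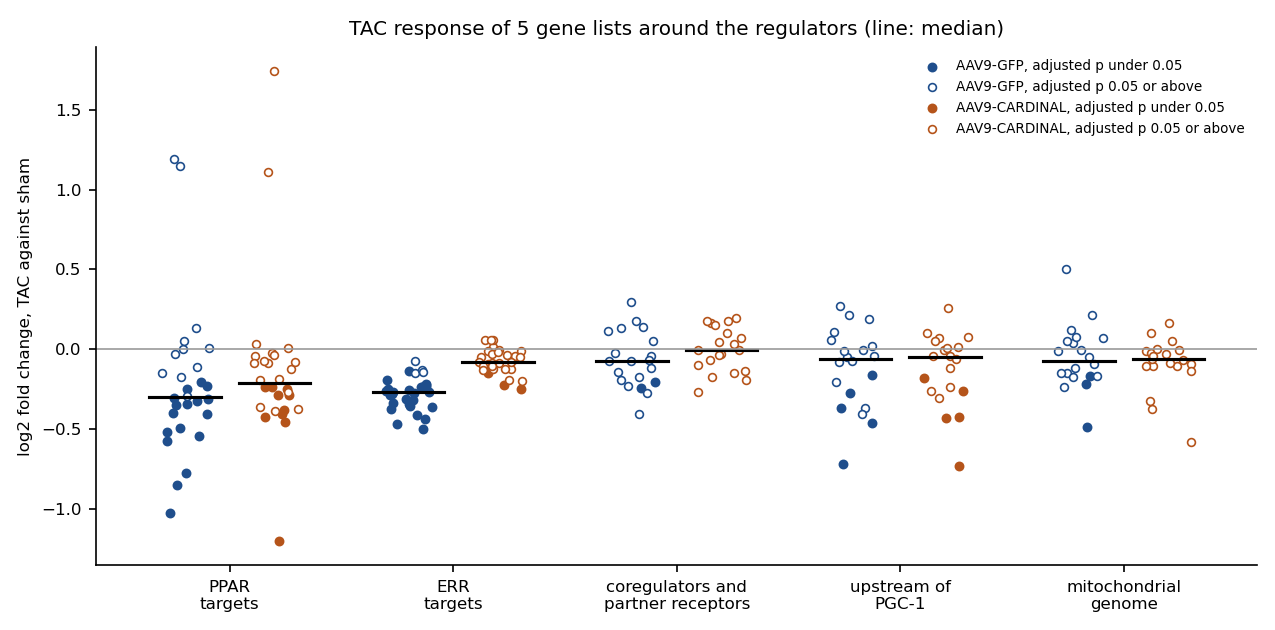
Log2 fold change with TAC of the tested genes of the 5 pathway lists in AAV9-GFP and AAV9-CARDINAL hearts, with a point for each gene and a bar at each list's median. The ERR target genes lie below 0 in all 30 cases with AAV9-GFP, at a median of -0.27, and around -0.08 with AAV9-CARDINAL.

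Directly between the viruses after TAC, edgeR called none of the 30 ERR target genes and none of the 28 PPAR target genes. An unadjusted p under 0.05 was held by 25 and 12 of them, against 2528 of all 16857 genes tested. All 30 ERR targets and 25 of 28 PPAR targets had a higher mean with AAV9-CARDINAL (median log2 fold changes 0.16 and 0.16, against -0.0065 over all genes), and 7 and 2 of them did not overlap, against 3.58% of all genes. The shift was not particular to these lists. All 12 cardiomyocyte markers, described below, also had a higher mean with AAV9-CARDINAL (median 0.22), and edgeR called none of them. DESeq2 called 13 ERR and 8 PPAR target genes higher with AAV9-CARDINAL. In either direction it called 3.53% of the genes to which it gave an adjusted p. For the difference in TAC response, edgeR called none of either list. An unadjusted p under 0.05 was held by 24 of 30 and 9 of 28, against 1722 of all 16857 genes tested. DESeq2 called 10 and 5, against 4.34% of the genes to which it gave an adjusted p. All 12 cardiomyocyte markers had a difference above 0 too, with a median of 0.20 beside 0.21 for the ERR targets, and edgeR called none.

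These counts depended on which mice were in the fit. Without AAV9-CARDINAL TAC replicate 1, edgeR called 17 ERR and 9 PPAR target genes higher with AAV9-CARDINAL after TAC, against 3.13% of all genes in either direction. For the difference in TAC response it then called 5 and 4, against 0.463% of all genes in either direction. Without AAV9-GFP TAC replicate 4 it called 2 of each list between the viruses, against 0.463% of all genes. Without AAV9-GFP TAC replicate 3 it called 0 of each list and 0 of all 17044 genes tested, and both list medians were 0.13. The summed level of the ERR target genes was 22053 CPM in AAV9-CARDINAL TAC replicate 1 and 24761 to 25543 in the other 3 mice of its group, beside 20313 to 22897 in AAV9-GFP TAC hearts. The PPAR target genes summed to 12998 CPM in that mouse and to 15694 to 16382 in the other 3, beside 11928 to 13807 in AAV9-GFP TAC hearts. Its sums thus lay within the range of AAV9-GFP TAC mice, although its Gm12295 level was the highest of all 16.

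**Figure D5:**
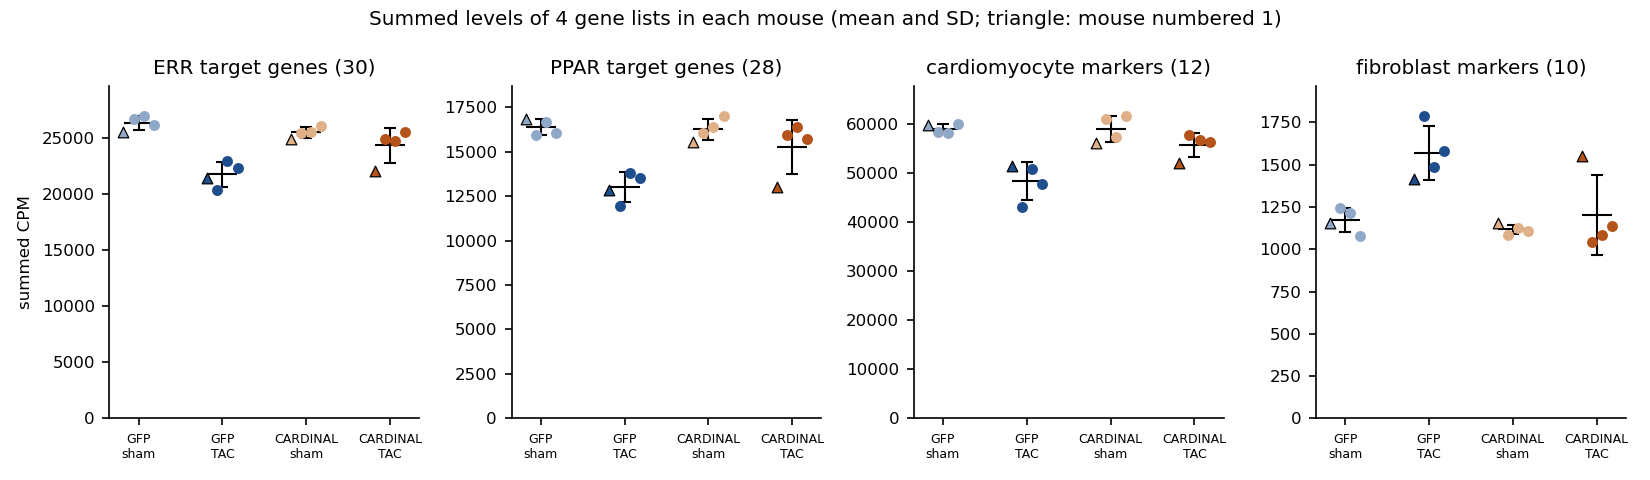
Summed CPM of the ERR target genes, the PPAR target genes and cell type markers in each of the 16 mice, with lines at each group's mean and SD and a triangle for the mouse numbered 1. In AAV9-CARDINAL TAC hearts replicate 1 lies at 22053 CPM for the ERR target genes and the other 3 mice between 24761 and 25543.

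Among coregulators and partner receptors, 2 of 20 fell with TAC in AAV9-GFP hearts, close to the 8.92% of all genes called lower. They were the nuclear receptor corepressor Ncor1 (113 ± 3.30 to 98.3 ± 6.58 CPM, log2 fold change -0.20, adjusted p = 0.014, edgeR) and the receptor Rxrg (32.6 ± 1.58 to 27.6 ± 2.12, -0.24, adjusted p = 0.023). The count of calls in either direction ran from 1 without sham replicate 1, TAC replicate 3 or TAC replicate 7 to 4 without sham replicate 3. In AAV9-CARDINAL hearts edgeR called none, with 2 at an unadjusted p under 0.05, against 3682 of all 16857 genes tested. DESeq2 called 1 (9.29% of the genes to which it gave an adjusted p), and without TAC replicate 1 edgeR called 2 higher. Perm1, an ERR-dependent muscle regulator, stood at 261 ± 17.9 CPM in sham and 241 ± 25.0 in TAC hearts with AAV9-GFP (log2 fold change -0.12), and had 0.20 with AAV9-CARDINAL, both without a call.

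Of 22 genes that act upstream of PGC-1, 20 were tested and 5 fell with TAC in each of the AAV9-GFP and AAV9-CARDINAL hearts, against 8.92% and 3.38% of all genes called lower. With AAV9-GFP these included Prkag1, a subunit of AMP-activated kinase (61.7 ± 2.48 to 51.1 ± 1.04 CPM, -0.27), the MADS-box activator Mef2a (170 ± 10.6 to 123 ± 16.9, -0.46), Klf15, a regulator of cardiac lipid use (45.1 ± 2.33 to 27.5 ± 6.23, -0.71), and the p38 kinase gene Mapk14 (47.6 ± 1.62 to 37.0 ± 6.42, -0.36). With AAV9-CARDINAL, Prkag1 (-0.18) and Mef2a (-0.42) were called again and Klf15 (-0.26) and Mapk14 (-0.31) were not. The thyroid hormone receptor gene Thra (-0.43) and Prkab1 (-0.73), named after their values were seen, were called with AAV9-CARDINAL and had -0.20 and -0.37 with AAV9-GFP, where they were not called. The count of calls in either direction with AAV9-GFP was 8 without TAC replicate 1. With AAV9-CARDINAL it was 1 without sham replicate 2 or TAC replicate 5 and 3 without TAC replicate 6.

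Of 20 genes of mitochondrial genome maintenance and transcription, 3 fell with TAC in AAV9-GFP hearts, against 8.92% of all genes called lower. They were led by the nuclease gene Mgme1 (13.0 ± 1.53 to 9.32 ± 1.16 CPM, log2 fold change -0.49, adjusted p = 0.0055, edgeR). Lrpprc, which stabilizes mitochondrial messengers, had -0.17 and Mterf2 -0.22. The count of calls in either direction was 1 without sham replicate 1, sham replicate 2 or TAC replicate 3. In AAV9-CARDINAL hearts edgeR and DESeq2 called none, with 2 at an unadjusted p under 0.05 in edgeR, against 3682 of all 16857 genes tested.

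Cell type markers moved with the same groups. Over all genes, 8.49% were called higher and 8.92% lower with AAV9-GFP, and 3.1% higher and 3.38% lower with AAV9-CARDINAL. Of 12 cardiomyocyte markers, 7 fell and 2 rose with TAC in AAV9-GFP hearts, and their summed level was 43044 to 51515 CPM against 58180 to 59963 after sham surgery. In AAV9-CARDINAL hearts 2 fell and 3 rose, with 52005 CPM in TAC replicate 1, 56387 to 57663 in the other 3 TAC mice and 56020 to 61583 after sham surgery. Fibroblast markers rose in 6 of 10 cases with AAV9-GFP and in 2 of 10 with AAV9-CARDINAL, and their sum was 1417 to 1787 CPM in AAV9-GFP TAC, 1552 in AAV9-CARDINAL TAC replicate 1 and 1042 to 1137 in the other 3 mice. After sham surgery the fibroblast sum was 1076 to 1241 CPM with AAV9-GFP and 1085 to 1152 with AAV9-CARDINAL. In RNA of whole tissue, fewer cardiomyocytes and less of an RNA per cardiomyocyte cannot be told apart, and the part of tissue makeup in the falls of Ppara, Rxra and the target genes was not tested.

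Markers of other cell types were also counted. Endothelial markers rose in 2 and 1 of 10 cases and macrophage markers in 2 and 0 of 10 with AAV9-GFP and AAV9-CARDINAL, against the 8.49% and 3.1% of all genes called higher, and no macrophage marker had an unadjusted p under 0.05 with AAV9-CARDINAL. Of 8 smooth muscle and pericyte markers, 2 rose and 1 fell with AAV9-GFP and 1 fell with AAV9-CARDINAL. Of the 8 adipocyte markers only Cidea passed the filter, at 11.8 to 18.3 CPM. Lep, Retn and Ucp1 were at 0 in every mouse, Adipoq at 0.575 CPM or less and Cfd at 1.02 CPM or less. The atrial markers Sln, Myl7 and Bmp10 stayed at or below 0.471 CPM. The 3 of 6 atrial markers tested were higher, with Kcna5 at 15.3 to 31.8 CPM and Stard10 at 5.16 to 13.96 CPM. Myl4, the lowest of these 3, reached at most 1.76 CPM. Of the 3 atrial markers tested, 1 fell with TAC in AAV9-GFP hearts.

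Genes whose levels ran most like those of 3 regulators were named by their Pearson r of log2 CPM over the 16 mice, as a description without a test, since mice share their group, and with r after removal of group means. For Ppargc1a these were Wbp11 (r = 0.91, and 0.91 with group means removed), Atl2 (0.91 and 0.94), Sf3b1 (0.88 and 0.91), Tmem100 (0.87 and 0.91) and Ell2 (0.86 and 0.86). For Ppara they were March6 (0.96 and 0.87), Taf1a (0.95 and 0.84), Acacb (0.94 and 0.79), Zfp969 (0.94 and 0.87) and Rmnd5a (0.93 and 0.81). For Esrra they were Slitrk6 (0.86 and 0.81), Ogt (0.81 and 0.74), Banf2os (0.81 and 0.82), Ctbp1 (0.79 and 0.79) and Atg10 (0.79 and 0.74). Values stayed near their first size without the group means for Ppargc1a, and fell for Ppara, whose level differed between groups.

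On the genome (GRCm38, GENCODE M21), Ppara lies on chromosome 15 from 85734983 to 85802819 on the plus strand, Rxra on chromosome 2 from 27676440 to 27762957 on the plus strand, and Ppargc1a on chromosome 5 from 51454250 to 51567726 on the minus strand. Esrra, on chromosome 19 from 6910977 to 6921813 on the minus strand, shares 3.74% of its exon bases with Trmt112 on the other strand and with Mir6990, and 1.49% of its 50-base stretches occur in other genes, so a small part of its counts is uncertain where reads were counted without strand. No other regulator shared exon bases with another gene, and at most 0.14% of their 50-base stretches occurred elsewhere.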

How the data were processed

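For 16 mouse hearts the authors deposited raw counts of reads on each Ensembl gene, not normalized, from single-end 50-base sequencing of poly(A)-selected RNA. Submitters' processing notes name FastQC, HISAT2 2.1.0, edgeR 3.26.1 and the build GRCm38. The counting program, annotation and use of strand are not given in the sources used here. Of 55573 genes, 55480 were named with GENCODE M21.

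The counts were fitted with edgeR 4.0.16 in R 4.3.3: TMM normalization, the expression filter for 4 groups (16857 genes), 1 quasi-likelihood fit of all 16 mice with group as the only term, and contrasts with Benjamini-Hochberg adjustment over all genes tested at a threshold of 0.05. Intervals are 95% intervals of that fit. The common coefficient of variation was 0.128. Mice of a group differed by more than sampling noise (chi-square per degree of freedom 5.10 to 14.9), so all were kept. The method was tested on simulated data. Likeness used log2 CPM with a prior count of 2. Promoters came from a RefSeq table of 250 bases before to 50 after each start on GRCm38.p6. Tables and plots were made in Python 3.11.15.

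The 10 regulators and the pathway and marker lists were chosen with earlier results of these data known. Named from each pathway list were up to 4 genes with the smallest adjusted p for TAC in AAV9-GFP hearts among those called, and every gene called between viruses after TAC. Of the genes so chosen 1 is left out of the text, though counts include it. Other list genes (Fabp3, Pdk4, Angptl4, Mfn2, Ldhb, Perm1, Thra, Prkab1) and clock genes were chosen with their values in view. Likeness named the 5 genes with the largest r for each of Ppargc1a, Ppara and Esrra. Alternatives were DESeq2 1.42.0, other normalization factors, no filter or a filter of 1 CPM in 4 mice, a robust spread, mitochondrially encoded genes left out, only the 8 mice compared, replicate number as a block, and each mouse left out.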

Additional observations from a re-analysis of the deposited data

Results flagged for a closer look

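In 40 groups of 4 mice, for the 10 regulators in each of the 4 groups, 2 held a mouse far from the other 3 by Dixon's test, and chance flags about 1 in 20 groups. Esrra stood at 75.6 CPM in AAV9-CARDINAL TAC replicate 6, and at 63.3 to 65.0 CPM in the other 3 mice of that group. In replicate 4 of the AAV9-GFP sham mice Nrf1 stood at 8.16 CPM, while the other 3 held 6.37 to 6.39 CPM.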

How the results depend on the processing

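Among the 25 alternatives tried, the falls of Ppara and Rxra with TAC in AAV9-GFP hearts kept their direction and call in each one. The count of called regulators with TAC in AAV9-CARDINAL hearts was 1 and became 0 with the replicate number as a block and 0 with only the 8 mice compared, and it ran from 0 to 2 when each mouse was left out. It was 0 without AAV9-CARDINAL sham replicate 1 or 2 or TAC replicate 5 or 6, where Rxra was lost, and 2 without TAC replicate 1, where Nrf1 was added. The labels do not say that replicate numbers pair the mice, and the numbers were read as names: deviations of same-numbered mice had a median correlation of 0.054 (range -0.040 to 0.21, 4 of 16 over 0.1, all 4 between mice numbered 1), against -0.013 for different numbers (4 of 80 over 0.1). With that replicate block Rxra had -0.17 with TAC in AAV9-CARDINAL hearts (adjusted p = 0.21, edgeR).

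None of the values that changed sign was called in either setting. With the replicate block, Esrrb became -0.0096 between viruses after TAC, and for the difference in TAC response Ppargc1b became -0.047, Ppard -0.018, Esrrb -0.020 and Esrrg 0.024. Without a filter on low counts, Nrf1 became 0.0021 between viruses after TAC and Esrrb -0.00086 in sham hearts. Leaving out each mouse, the log2 fold changes that turned ranged as follows. With TAC and AAV9-GFP, Ppargc1a ran from -0.47 to 0.038. With TAC and AAV9-CARDINAL the ranges were -0.31 to 0.15 for Ppargc1a, -0.071 to 0.0085 for Ppard, -0.070 to 0.017 for Esrra, -0.069 to 0.024 for Esrrb and -0.0037 to 0.056 for Tfam. Between viruses after TAC they were -0.040 to 0.47 for Ppargc1a, -0.066 to 0.054 for Nrf1 and -0.065 to 0.041 for Tfam. Between viruses in sham hearts they were -0.15 to 0.30 for Ppargc1a, -0.0086 to 0.21 for Ppargc1b, -0.018 to 0.054 for Ppard, -0.039 to 0.031 for Esrra and -0.078 to 0.12 for Esrrb. For the difference in TAC response they were -0.14 to 0.37 for Ppargc1a, -0.059 to 0.20 for Ppargc1b, -0.012 to 0.086 for Ppard, -0.022 to 0.18 for Esrrb, -0.092 to 0.026 for Esrrg and -0.010 to 0.090 for Rxra. The cause was not tested. Counts of list genes called in either direction moved by over 1.5 times as follows. With TAC in AAV9-CARDINAL hearts the replicate block left 0 of the 10 PPAR targets, 0 of the 3 ERR targets and 0 of the 5 upstream genes, where 31 genes were called in all against 1092 without it. Only the 8 mice compared left 0 ERR targets, no filter left 6 PPAR targets, and DESeq2 or upper-quartile factors called 1 coregulator against 0. In AAV9-GFP hearts coregulators went from 2 to 1 with the block, upstream genes from 5 to 3 with only the 8 mice, and mitochondrial genome genes from 3 to 1 with the block, the 8 mice or no filter. Between viruses after TAC the 17 genes called in all became 435 with DESeq2 and 0 with the block.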
